A study of Mus musculus with 8 samples.

Results

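Of the 17712 H3K27me3 islands called in wild-type mouse cells (mesenchymal stem and progenitor cells grown from bone marrow), 12828 lay on an autosome, were narrower than 40 kb and overlapped no wild-type island of H3K4me2, H3K4me3 or ASXL1. These regions, called H3K4-free islands below, made up 75.8% of the 16929 autosomal H3K27me3 islands under 40 kb. They were chosen from 4 wild-type island lists, so their lack of H3K4 methylation and ASXL1 and their width are properties of the choice and not results. The remaining 4101 islands under 40 kb, here the other H3K27me3 islands, served as the comparison. An island is a stretch of DNA in which a peak caller found more immunoprecipitated reads than background, and the deposited lists give its chromosome, start and end and no read count, score or p-value.

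The series holds chromatin immunoprecipitation sequencing of ASXL1 in wild-type cells, of 3 histone marks (H3K27me3, H3K4me2 and H3K4me3) in both wild-type and Asxl1-/- cells, and of an input library that has no list and was not analysed here. Both genotypes were C57BL/6 mesenchymal stem and progenitor cells cultured from bone marrow and taken at passages 5 to 10, and the labels do not say how the Asxl1-/- allele was made, in which cells it was deleted or from how many animals the cells came. Each mark in each genotype is 1 library, so no difference between genotypes can be told apart from a difference between 2 libraries, and none was tested. Ranges in parentheses after a percentage are 95% Clopper-Pearson intervals (exact binomial); they describe counting error alone, and neighbouring islands are not independent. Library depth is unknown. At the targeted gene, Asxl1 on chromosome 2, the Asxl1-/- lists had 2 islands of H3K4me2, 2 of H3K4me3 and 4 of H3K27me3, the wild-type lists had 1, 2 and 0, and no H3K4-free island lay there. The lists therefore do not show the deletion.

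Trimethylation of lysine 27 of histone H3 is laid down by Polycomb repressive complex 2, whose catalytic subunits are EZH1 and EZH2, and it marks genes held silent in a given lineage. At CpG-rich promoters of developmental genes it often lies together with H3K4 methylation, the pattern called bivalent, while H3K27me3 without H3K4 methylation is found at silent genes of other lineages and over long stretches between genes. H3K4me2 marks promoters and enhancers, and H3K4me3 marks active or poised promoters. ASXL1 is a partner of the deubiquitinase BAP1, which removes ubiquitin from histone H2A, and it also binds Polycomb repressive complex 2.

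The gene starts inside H3K4-free islands ranged from CpG-poor promoters of tissue genes to a small CpG-rich group, and these sequences show both kinds. Each is the 250 bases before a gene start, 5′ to 3′ on the strand of the gene, from RefSeq on GRCm38.p6, with every CpG dinucleotide in capitals. Krt71, a keratin of the hair follicle sheath (chr15:101743098-101743347, minus strand), and Lalba, the milk protein alpha-lactalbumin (chr15:98482684-98482933, minus strand), had 3 and 2 CpG in these bases. Neurog1, a neurogenic transcription factor (chr13:56252181-56252430, minus strand), had 29, and Ptf1a, a transcription factor of pancreas and cerebellum (chr2:19445413-19445662, plus strand), had 19. Tbx20, a cardiac T-box factor (chr9:24774304-24774553, minus strand), had 22, Aldh1a2, which makes retinoic acid (chr9:71215539-71215788, plus strand), had 40, and Mpped1 (chr15:83779773-83780022, plus strand) had 47.
Krt71: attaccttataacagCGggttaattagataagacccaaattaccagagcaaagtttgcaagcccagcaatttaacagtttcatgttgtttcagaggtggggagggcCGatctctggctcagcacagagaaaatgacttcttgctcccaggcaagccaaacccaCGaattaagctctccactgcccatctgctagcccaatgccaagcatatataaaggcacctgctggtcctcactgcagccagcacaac
Lalba: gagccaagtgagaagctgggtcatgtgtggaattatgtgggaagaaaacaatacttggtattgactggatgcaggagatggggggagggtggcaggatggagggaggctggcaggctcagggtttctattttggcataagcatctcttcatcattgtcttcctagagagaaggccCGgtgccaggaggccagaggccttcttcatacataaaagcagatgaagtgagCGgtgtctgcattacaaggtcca
Neurog1: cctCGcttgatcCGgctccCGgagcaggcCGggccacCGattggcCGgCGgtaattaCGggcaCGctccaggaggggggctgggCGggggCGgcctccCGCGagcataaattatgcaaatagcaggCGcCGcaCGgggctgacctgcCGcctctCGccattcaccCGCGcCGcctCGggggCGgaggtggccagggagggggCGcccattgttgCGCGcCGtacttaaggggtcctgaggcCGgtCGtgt
Ptf1a: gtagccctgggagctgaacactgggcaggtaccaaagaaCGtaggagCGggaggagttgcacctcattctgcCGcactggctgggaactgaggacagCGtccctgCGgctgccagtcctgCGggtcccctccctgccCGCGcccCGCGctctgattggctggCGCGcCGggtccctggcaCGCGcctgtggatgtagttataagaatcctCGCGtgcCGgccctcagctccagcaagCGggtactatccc
Tbx20: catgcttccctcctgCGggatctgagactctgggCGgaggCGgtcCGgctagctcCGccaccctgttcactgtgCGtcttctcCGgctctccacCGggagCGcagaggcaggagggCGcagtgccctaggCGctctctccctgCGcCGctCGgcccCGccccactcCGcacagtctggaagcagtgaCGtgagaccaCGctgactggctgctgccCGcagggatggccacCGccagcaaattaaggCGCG
Aldh1a2: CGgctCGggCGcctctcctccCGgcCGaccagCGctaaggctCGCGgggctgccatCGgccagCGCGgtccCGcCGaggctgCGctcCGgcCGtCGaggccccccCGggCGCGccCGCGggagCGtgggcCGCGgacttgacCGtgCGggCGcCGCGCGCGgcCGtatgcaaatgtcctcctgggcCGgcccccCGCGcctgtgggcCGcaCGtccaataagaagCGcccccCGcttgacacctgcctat
Mpped1: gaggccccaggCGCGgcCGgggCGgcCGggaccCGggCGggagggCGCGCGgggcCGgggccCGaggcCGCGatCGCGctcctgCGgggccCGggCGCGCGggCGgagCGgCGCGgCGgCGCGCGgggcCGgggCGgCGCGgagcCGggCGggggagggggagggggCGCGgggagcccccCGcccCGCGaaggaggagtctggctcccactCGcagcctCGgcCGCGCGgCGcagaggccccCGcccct
In Asxl1-/- cells an H3K27me3 island reached all 7 of these starts. An Asxl1-/- H3K4me2 island reached the starts of Neurog1, Ptf1a, Tbx20 and Aldh1a2, and none reached those of Krt71, Lalba or Mpped1. The 7 were picked to show both kinds, so these counts do not give shares. Over all 1264 promoter windows (defined below) in H3K4-free islands, the Asxl1-/- shares were 72.0% for H3K27me3 and 14.2% for H3K4me2. The printed starts of Neurog1, Ptf1a, Tbx20, Aldh1a2 and Mpped1 had 20 or more CpG in the window, as did 8.94% of those windows. In that class the shares were 87.6% and 68.1%.

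The labelled cell type was compared with marker genes. Of 16 marker genes of mesenchymal stem and progenitor cells, 15 had a wild-type H3K4me3 island within 1000 bp of a gene end, the exception being Lepr, the leptin receptor, which carried an H3K4-free island of 5.6 kb over 2 of its promoter windows. Asxl1-/- cells had 1.8 kb of H3K4me2 on that island, reaching both windows, and H3K27me3 over 35.7% of it. Among 11 autosomal haematopoietic markers, 2 had H3K4me3 at an end, Spi1 and Cd34. H3K4-free islands overlapped 7, among them Ptprc (CD45), Kit, Tyrobp, Itgam and Cd3e, and also Spi1 despite its H3K4me3. Ptprc held 5 such islands of 5.2 to 17.6 kb, none of which overlapped an Asxl1-/- H3K27me3 island, and the 3 in Kit had none either. The share of all H3K4-free islands that did was 79.9% on chromosome 1, which holds Ptprc, and 57.5% on chromosome 5, which holds Kit. The island over Cd3e, a T cell receptor subunit, was 16.2 kb wide and covered whole by Asxl1-/- H3K27me3. Of 8 endothelial markers, 2 had H3K4me3 at an end, Kdr and Erg, and H3K4-free islands overlapped Erg, Tek, Tie1 and Cdh5. Across all autosomal protein-coding genes, 14.4% were overlapped by an H3K4-free island (2968 of 20665). Wild-type H3K4me3 was at 58.6% of all promoter windows, an unlike measure, and its share at the ends of all genes is not given here.

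H3K4-free islands lay mostly outside protein-coding genes, but 59.4% overlapped an annotated gene of any kind (58.5 to 60.3). Protein-coding genes overlapped 42.7% of them (41.8 to 43.5), against 77.5% of the other H3K27me3 islands (76.2 to 78.8). Their midpoints fell in a protein-coding gene in 36.9% of cases (36.1 to 37.8), while protein-coding genes took up 40.3% of the autosomal span from the first to the last gene of each chromosome. The islands were therefore not more genic than the autosomes at large, whereas the other H3K27me3 islands, at 52.6%, were. A promoter window, which runs from 250 bases before to 50 after a gene start, fell within 8.28% of H3K4-free islands (1062) and 47.8% of the others. Exclusion by H3K4 methylation, itself found at gene starts, enters this difference. A further 34.4% lay in a gene body without a promoter window, and the remaining 57.3% lay outside protein-coding genes, here called intergenic, where the median distance to the nearest protein-coding gene was 27.3 kb and 16.1% were over 100 kb away.

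In width the H3K4-free islands ran from 0.4 to 39.8 kb with a median of 7.8 kb, and together they covered 122.6 Mb, or 5.02% of the autosomal gene span. Median widths were 10.2 kb at gene starts, 8.2 kb in gene bodies and 7.2 kb between genes. At the width limit the widest were 39.8 kb, over Capn8 and in the intergenic regions near Msx1, Cyp26b1 and Luc7l. The nearest islands left out, at 40 kb, lay over Bpi and nearest to Src and Fam20c.

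The islands came in runs. The median gap between neighbours was 18.2 kb, and even spacing over the same span would put their starts 190.3 kb apart. Another H3K4-free island lay within 20 kb of 72.5% of them, and the longest run linked at that distance held 27 islands. Inside single genes the largest numbers were 26 in Alk, a receptor tyrosine kinase gene of the nervous system, 23 in the long locus annotated as Iqschfp, 19 in Adamts17, a secreted protease gene, 17 in Nrg1, which codes for a ligand of ERBB receptors, and 16 in Kcnma1, a calcium-activated potassium channel gene. These genes were 313.5 to 1084 kb long, and their islands covered 13.6% of Nrg1 to 54.6% of Adamts17.

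Among the stretches of up to 500 kb and the single genes with the most islands, some had a uniform state in Asxl1-/- cells and others were mixed. On chromosome 3 between 67609400 and 68104999 (mm10), around Iqcj and Schip1, none of 33 islands overlapped an Asxl1-/- H3K27me3 island, where 12.1% of all H3K4-free islands on that chromosome did. None of the 17 in Nrg1 on chromosome 8 did, where the chromosome's share was 46.5%. On chromosome 4 between 138471400 and 138963999, around the secreted phospholipase genes Pla2g2c, Pla2g2d, Pla2g2e, Pla2g2f and Pla2g5, 29 of 30 did, where the share on chromosome 4 after 120 Mb was 82.3%. On chromosome 9 between 69502200 and 69983199, near Foxb1, 26 of 28 did, where the chromosome's share was 77.3%. On chromosome 7, with a share of 56.3%, 8 of 30 did near Tex36 and 14 of 28 did around Pgpep1l and Fam169b. In Alk, on chromosome 17 with a share of 56.5%, 11 of 26 did. For neighbours up to 20 kb apart, 76.9% of 6603 pairs had the same state, and for neighbours over 200 kb apart 64.9% of 2175 pairs did.

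Gene starts inside H3K4-free islands were poor in CpG. The RefSeq table held promoter windows of 300 bases for 16457 autosomal protein-coding genes, of which 1111 (6.75%) had a window in an H3K4-free island. In those 1264 windows the median was 5 CpG (quartiles 3 and 9), against 19 (10 and 27) in windows within the other H3K27me3 islands and 14 in all 20085 windows. Windows in no wild-type island of any of the 4 lists had a lower median still, at 2 CpG. In H3K4-free islands 76.0% of windows had fewer than 10 CpG (73.6 to 78.4), in the other H3K27me3 islands 24.6% (22.9 to 26.3), and in windows with no island 91.6% (90.9 to 92.4). H3K4 methylation covers most CpG-rich starts, with wild-type H3K4me2 at 94.9% of all windows of 20 or more CpG, so the choice of islands without it enters this difference.

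**Figure D1:**
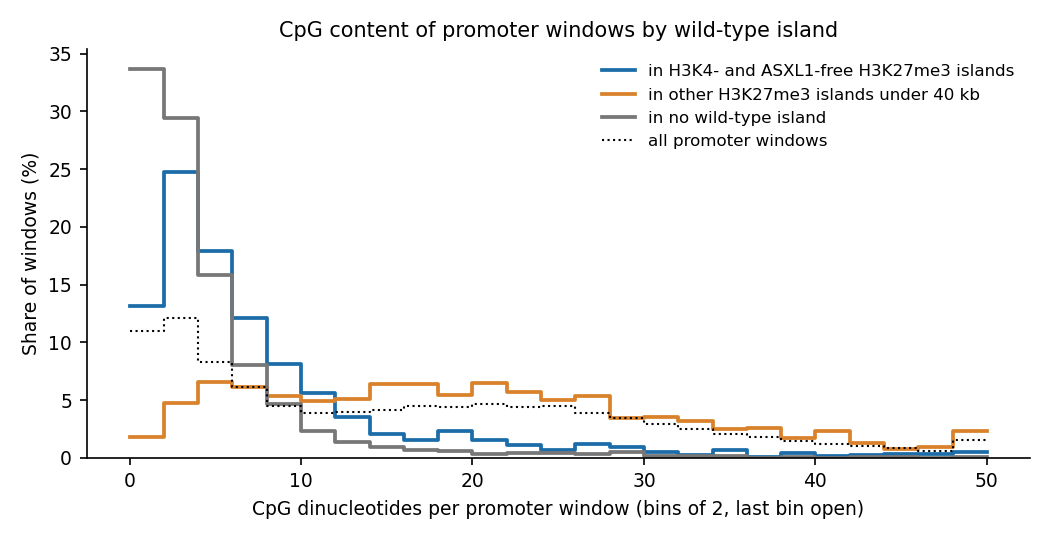
Share of promoter windows (vertical axis, %) by their number of CpG dinucleotides (horizontal axis, bins of 2), for windows in H3K4-free H3K27me3 islands, in the other H3K27me3 islands under 40 kb, in no wild-type island and in all. Windows in H3K4-free islands (median 5) peak at low CpG, between those in no island (median 2) and those in the other H3K27me3 islands (median 19).

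Gene families differed widely in how many of their genes an H3K4-free island overlapped. Families were defined by gene symbol, and their shares were set beside 14.4% for all genes. Long genes are overlapped more easily: the share was 7.33% in the shortest of 5 length classes (median 1.70 kb) and 26.3% in the longest (median 109.1 kb). Of 46 families, 14 had an interval wholly above the share for all genes and 4 wholly below it. For starts alone, beside 6.75% for all genes, 7 were above and 2 below. No enrichment test was made, and genes in a cluster can share an island.

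By any overlap, the sodium and calcium channels of excitable cells stood highest. Voltage-gated sodium channel genes were overlapped in 9 of 14 cases (64.3%, 35.1 to 87.2), and calcium channel genes in 15 of 25 (60.0%, 38.7 to 78.9). These are long genes, with medians of 103.1 and 111.1 kb, and no sodium channel gene was covered over 50% or more of its body. Potassium channel genes were overlapped in 31 of 92 cases (33.7%, 24.2 to 44.3), with a median gene length of 34.5 kb. The widest islands in these families lay over Kcng2 (39.0 kb), Cacna2d2 (36.8 kb), Kcnq1 (36.0 kb) and Cacng4 (35.8 kb). Asxl1-/- H3K27me3 covered 100% of the Kcng2 island, 98.9% of that in Cacna2d2 and 91.1% of that in Kcnq1. In the sodium channel family, the Scn10a island of 12.6 kb and the Scn3b island of 12 kb each held 1.8 kb of Asxl1-/- H3K4me2, and the Scn8a island of 12.2 kb held none.

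Receptors for transmitters and peptides were overlapped in 18 of 51 cases for the monoamine and neuropeptide receptors (35.3%), in 8 of 19 for GABA and glycine receptors (42.1%) and in 9 of 26 for glutamate receptors (34.6%). The last 2 families have long genes, with medians of 90.7 and 279.4 kb, beside a share of 26.3% in the longest length class, and 1 and 0 of their genes were covered over 50% or more. Nicotinic and muscarinic receptor genes were overlapped in 6 of 21 cases (28.6%), and none of their 16 starts lay in an island. The monoamine and neuropeptide receptor genes are short (median 10.6 kb), and 7 of the 35 with a promoter window had it in an H3K4-free island (20.0%, 8.44 to 36.9). Grin2b, an NMDA receptor subunit gene, held 7 islands of which none overlapped Asxl1-/- H3K27me3. Grid1, a delta-type glutamate receptor gene, held 1 of 19 kb, covered whole by Asxl1-/- H3K27me3 and with 4.2 kb of H3K4me2. All 3 islands in Glra1, a glycine receptor subunit gene, overlapped Asxl1-/- H3K27me3. The share of all H3K4-free islands that did was 67.8% on chromosome 6, which holds Grin2b, and 85.2% on chromosome 11, which holds Glra1.

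Keratins and keratin-associated proteins, the structural proteins of epithelia and hair, were overlapped in 35 of 109 cases (32.1%, 23.5 to 41.7), although their median length is 1.65 kb. Among those with a promoter window, 23 of 87 starts lay in an H3K4-free island (26.4%, 17.6 to 37.0). Their 32 islands overlapped Asxl1-/- H3K27me3 in 29 cases, beside 64.6% of all H3K4-free islands on protein-coding genes. The islands of 37.8 kb over Krt71 and 36.4 kb over Krt4 and Krt79 were covered whole. These lie on chromosome 15, where 73.7% of all H3K4-free islands overlapped Asxl1-/- H3K27me3. Over all autosomes the share was 85.1% for H3K4-free islands above 16 kb. Genes of the cornified envelope, the outer shell of skin cells, were overlapped in 3 of 42 cases (7.14%, 1.5 to 19.5), and the difference from keratins was not tested.

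Carboxylesterases, drug- and ester-hydrolysing enzymes of liver and gut, were overlapped in 8 of 19 cases (42.1%, 20.3 to 66.5). One island of 37.8 kb spanned Ces2e and Ces2f and another of 24.4 kb lay over Ces2b, and neither overlapped Asxl1-/- H3K27me3. In the whole family 2 of 7 islands did, beside the 64.6% for all H3K4-free islands on protein-coding genes. The named carboxylesterase islands lie on chromosome 8, where the share of all H3K4-free islands was lower, at 46.5%. Solute carriers were overlapped in 97 of 376 cases (25.8%, 21.4 to 30.5), cytochrome P450 genes in 23 of 98 (23.5%, 15.5 to 33.1), and interleukins and their receptors in 22 of 78 (28.2%, 18.6 to 39.5). Of the 33 islands on interleukin genes, 28 overlapped Asxl1-/- H3K27me3, beside the same 64.6%, among them those over Il24 (28.8 kb) and Il25 (28.0 kb). Collagen genes, many of which mesenchymal cells use, were overlapped in 17 of 42 cases (40.5%, 25.6 to 56.7) with a median length of 110.4 kb. Their starts lay in an H3K4-free island in 3 of 33 cases (9.09%, 1.92 to 24.3).

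Families of developmental transcription factors had intervals that included the share for all genes or, for Hox genes, lay below it. The choice left out H3K27me3 islands of 40 kb or more and those with H3K4 methylation or ASXL1, and this enters these shares. A low share does not show that a family lacks H3K27me3. No Hox gene of 39 was overlapped (upper limit 9.03%), forkhead genes were overlapped in 2 of 41 cases, non-Hox homeobox genes in 20 of 116 (17.2%, 10.9 to 25.4) and T-box genes in 4 of 15. Basic helix-loop-helix factors, short genes with a median of 2.88 kb, were overlapped in 7 of 39 cases (17.9%, 7.54 to 33.5), and 6 of 30 starts lay in an island (20.0%, 7.71 to 38.6). Of their 7 islands, 4 overlapped Asxl1-/- H3K4me2, beside 19.9% of all H3K4-free islands at gene starts. These included Olig3, a neural tube factor, with an island of 36.6 kb, 32.0 kb of which Asxl1-/- H3K27me3 covered and 4.2 kb H3K4me2. The Neurog1 island of 27.6 kb had 26.8 and 1.8 kb, and the Ptf1a island of 19.4 kb had 19.4 and 2.6 kb.

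Olfactory receptor, vomeronasal receptor and Zfp genes, like Hox genes, had intervals wholly below the share for all genes. Olfactory receptors were overlapped in 57 of 1104 cases (5.16%, 3.93 to 6.64), where the shortest length class of all genes had 7.33%. Vomeronasal receptors were overlapped in 2 of 354 (0.565%, 0.0685 to 2.03) and Zfp genes in 17 of 388 (4.38%, 2.57 to 6.92). Many of these genes have near-identical copies, so their values are uncertain: how reads matching several places were treated is not stated by the labels.

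**Figure D2:**
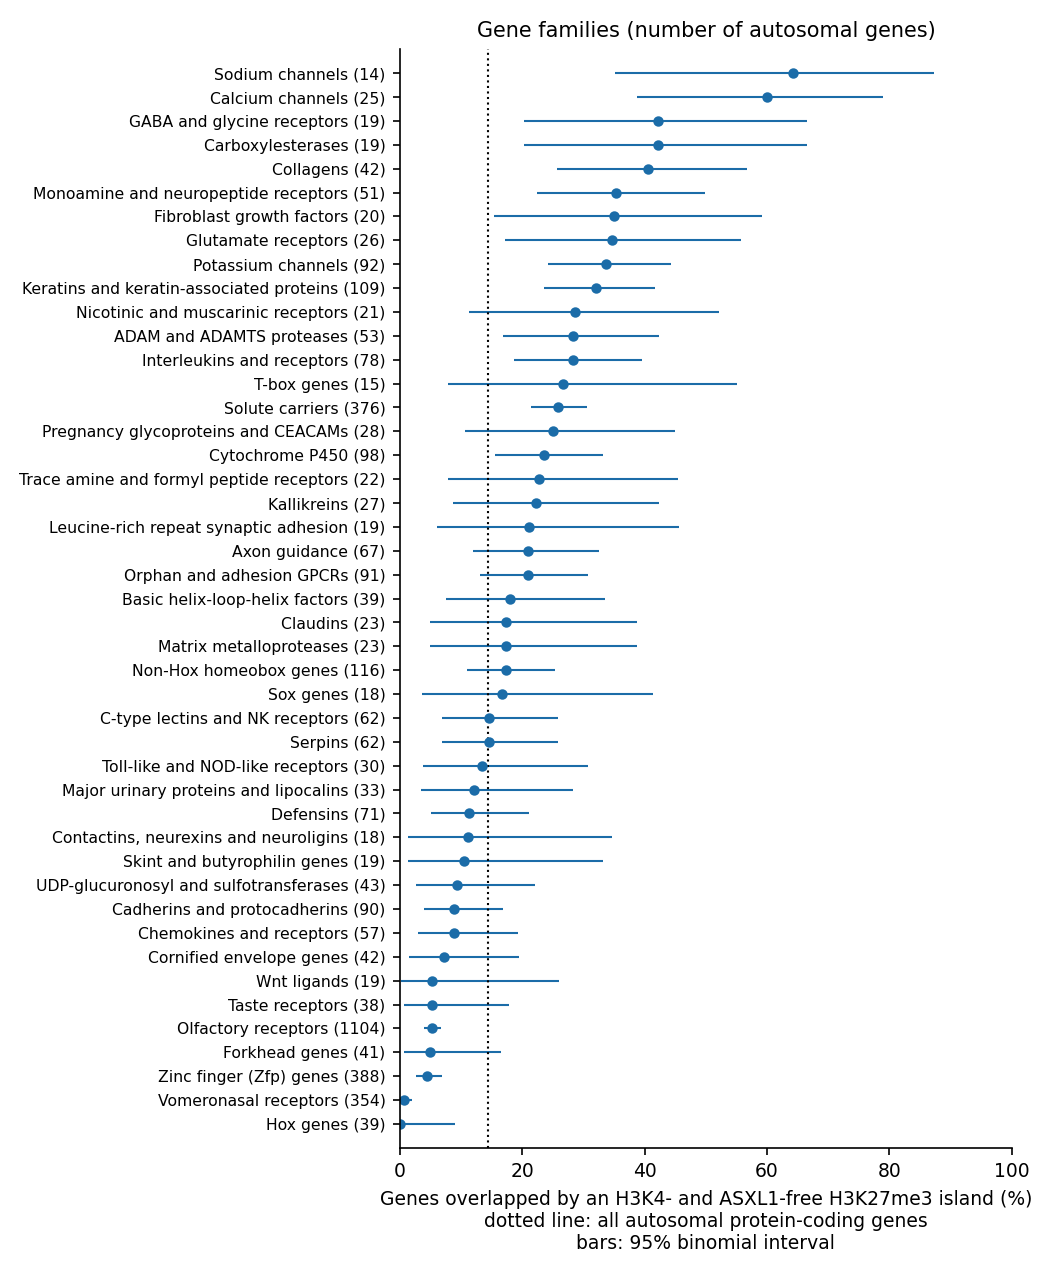
Share of autosomal genes that an H3K4-free H3K27me3 island overlapped (horizontal axis, %), for each family with 10 or more genes, with its number of genes in parentheses. Bars are 95% exact binomial intervals and the dotted line is the share for all protein-coding genes, 14.4%. Sodium and calcium channels stand highest, and Hox, vomeronasal receptor and Zfp genes lowest.

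H3K4-free islands overlapped 43 of 919 autosomal microRNA hairpins (4.68%), in 41 islands with a median width of 11.2 kb. Asxl1-/- H3K27me3 overlapped 38 of the 41 (92.7%, 80.1 to 98.5) and H3K4me2 overlapped 8. Over all H3K4-free islands, whose median width was 7.8 kb, H3K27me3 overlapped 59.9% and H3K4me2 5.72%, and over all wild-type islands under 40 kb 62.8% and 24.4%. These mature sequences, chosen after their values were seen, belong to microRNAs of heart, brain and epithelium and to the islands that Asxl1-/- H3K27me3 did not reach. They are given 5′ to 3′ from the RefSeq hairpin table, with the seed, bases 2 to 8, in capitals.
miR-208a-3p: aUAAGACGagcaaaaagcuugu
miR-208b-3p: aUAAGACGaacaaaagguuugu
miR-137-3p: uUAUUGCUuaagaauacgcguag
miR-7b-5p: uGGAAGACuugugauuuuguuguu
miR-200a-3p: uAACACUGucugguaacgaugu
miR-429-3p: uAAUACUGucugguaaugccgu
miR-130b-3p: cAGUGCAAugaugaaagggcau
miR-204-5p: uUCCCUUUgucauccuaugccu
miR-190b-5p: uGAUAUGUuugauauuggguug
The pair miR-208a-3p and miR-208b-3p has the same seed and lies in the cardiac myosin genes Myh6 and Myh7 on chromosome 14, in neighbouring islands of 28.0 and 20.8 kb, both covered whole by Asxl1-/- H3K27me3. The brain microRNA miR-137 lay in an island of 7.6 kb on chromosome 3, of which 6.8 kb was covered by Asxl1-/- H3K27me3 and 2.2 kb by H3K4me2. The island of miR-7b, 18.2 kb, had 16.4 and 1.4 kb. The epithelial miR-200a and miR-429 shared an island of 8.2 kb on chromosome 4, of which 53.7% was covered by Asxl1-/- H3K27me3. No Asxl1-/- H3K27me3 reached the islands of miR-204, in Trpm3 (4.8 kb), of miR-190b on chromosome 3 (6.8 kb), or of miR-130b and miR-301b (11.2 kb), and the last carried 1.4 kb of H3K4me2 and 1.6 kb of H3K4me3.

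In Asxl1-/- cells an H3K27me3 island overlapped 7682 of the 12828 H3K4-free islands, or 59.9% (59.0 to 60.7), where the share over all autosomal wild-type islands under 40 kb was 62.8%. The other H3K27me3 islands were overlapped in 72.0% of cases (70.6 to 73.4). With the genotypes exchanged, Asxl1-/- H3K27me3 islands free of Asxl1-/- H3K4me2 and H3K4me3 overlapped a wild-type H3K27me3 island in 58.2% of 14121 cases (57.3 to 59.0), and the wild-type islands chosen by the same 2 lists gave 59.8%. Of all autosomal Asxl1-/- H3K27me3 islands, 64.6% overlapped a wild-type one. Where an Asxl1-/- island was found, it covered a median of 92.9% of the H3K4-free island, and 36.7% were covered whole. In the 4440 pairs of 1 island with 1 island, the median ratio of Asxl1-/- to wild-type width was 1.0 (quartiles 0.727 and 1.41). The 5146 islands not overlapped lay a median of 31.3 kb from the nearest Asxl1-/- H3K27me3 island.

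Width and place went with the overlap. It was 39.97% for H3K4-free islands up to 4 kb, 52.0% over 4 to 8 kb, 67.9% over 8 to 16 kb and 85.1% above 16 kb. The other H3K27me3 islands gave 37.0, 55.9, 77.5 and 92.6%, and the intervals of the groups overlapped up to 4 kb (37.8 to 42.1 and 32.2 to 41.9) and over 4 to 8 kb (50.5 to 53.4 and 52.9 to 58.8). By place the overlap was 79.0% at gene starts (76.4 to 81.4), 61.1% in gene bodies and 56.4% between genes. Gene starts stood above intergenic islands in each of the 4 width classes, with 65.7% at gene starts (55.6 to 74.8) and 37.6% between genes (35.0 to 40.3) up to 4 kb. Above 16 kb the values were 90.7% (86.7 to 93.8) and 83.7% (80.9 to 86.3).

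**Figure D3:**
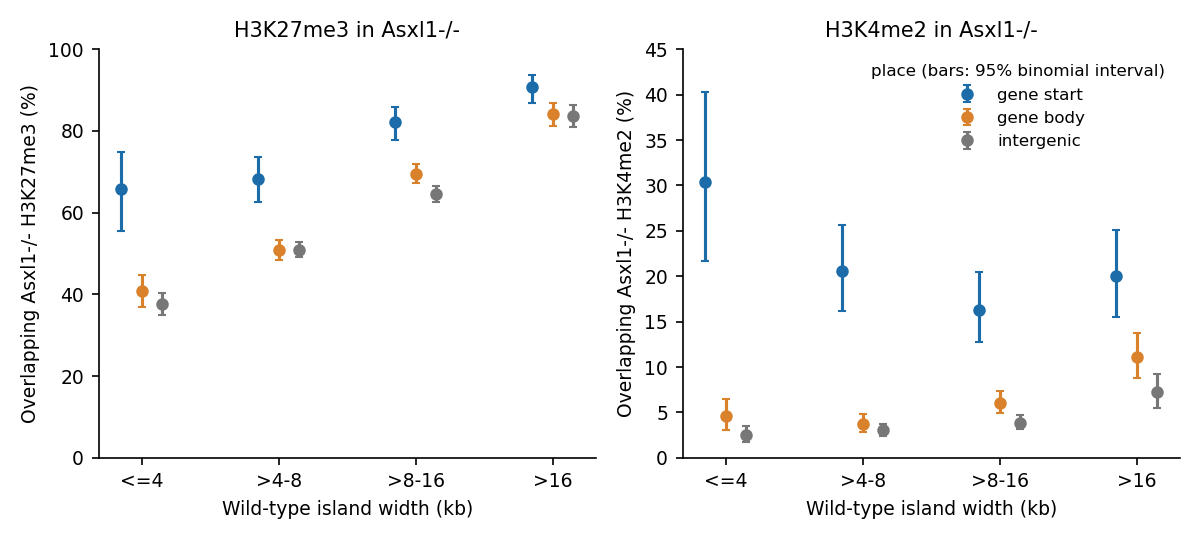
Share of wild-type H3K4-free H3K27me3 islands that overlapped an Asxl1-/- H3K27me3 island (left, %) or an Asxl1-/- H3K4me2 island (right, %, on a shorter axis), by wild-type width and place, with 95% exact binomial intervals. H3K27me3 overlap climbs with width at every place, and islands at gene starts lie highest in both panels.

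Among the widest islands at a gene end with H3K27me3 in Asxl1-/-, the one over Capn8, a calpain of the stomach lining, was 39.8 kb (chr1:182615400-182655199) and lay whole inside an Asxl1-/- island of 140.8 kb. The island over Muc4, an epithelial mucin (chr16:32747200-32786599), was 39.4 kb and covered to 89.3%. The Lalba island, 38.8 kb, was covered to 99.5% by 1 Asxl1-/- island of 43.4 kb. Jakmip1 (39.2 kb, 94.9%), Kndc1 (39.2 kb, 93.4%), Plch2 (39.0 kb, 90.8%), Pou4f3, a hair cell transcription factor (38.8 kb, 88.7%), and the blood group gene Abo (38.6 kb, 62.2%) completed the set. The 4 widest intergenic islands, near Msx1, Cyp26b1, Luc7l and Prlhr, were covered to 75.4 to 98.0%.

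Within genes, the widest islands without any Asxl1-/- H3K27me3 lay in Robo2, an axon guidance receptor gene (39.4 kb, chr16:74556000-74595399), Add2, an adducin gene of the membrane skeleton (38.8 and 32.6 kb, 2 islands on chromosome 6), and Galnt14 (37.8 kb). The Ces2e and Ces2f island described above was of the same width, and next came Egf, the epidermal growth factor gene on chromosome 3 (33.6 kb), Aplnr, the apelin receptor gene (31.6 kb), and Mtss1 (31.6 kb). The narrower Add2 island held 8.4 kb of Asxl1-/- H3K4me2 in 3 islands and the Mtss1 island 7.8 kb in 2, and the rest held none.

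The overlap spanned a wider range across chromosomes than across width classes or places. H3K27me3 overlap of H3K4-free islands was 12.1% on chromosome 3 (104 of 858), 35.2% on chromosome 13 and 42.4% on chromosome 4, and it was 87.2% on chromosome 14 and 87.9% on chromosome 10. Within chromosome 4 it was 20.6% before 120 Mb and 82.3% after. The other H3K27me3 islands ran in a like order, from 38.4% on chromosome 3 to 86.9% on chromosome 11. Across the 19 autosomes the 2 shares had a Pearson correlation of 0.963 (Spearman 0.939), and the share of H3K4-free islands had a correlation of 0.949 with the ratio of the length that H3K4me2 covered in Asxl1-/- to that in wild type (Spearman 0.963). These are descriptions over chromosomes that share libraries. That ratio was 0.532 on chromosome 3 and 1.35 on chromosome 10, and for H3K27me3 it was 0.222 and 2.09, so both marks moved together by chromosome in these libraries. The lists hold no read counts, and a difference in chromosome copy number was not tested. Without chromosomes 3, 4, 10, 13 and 14 the overlap was 65.2% for H3K4-free islands (64.2 to 66.2) and 75.6% for the others (74.1 to 77.1).

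**Figure D4:**
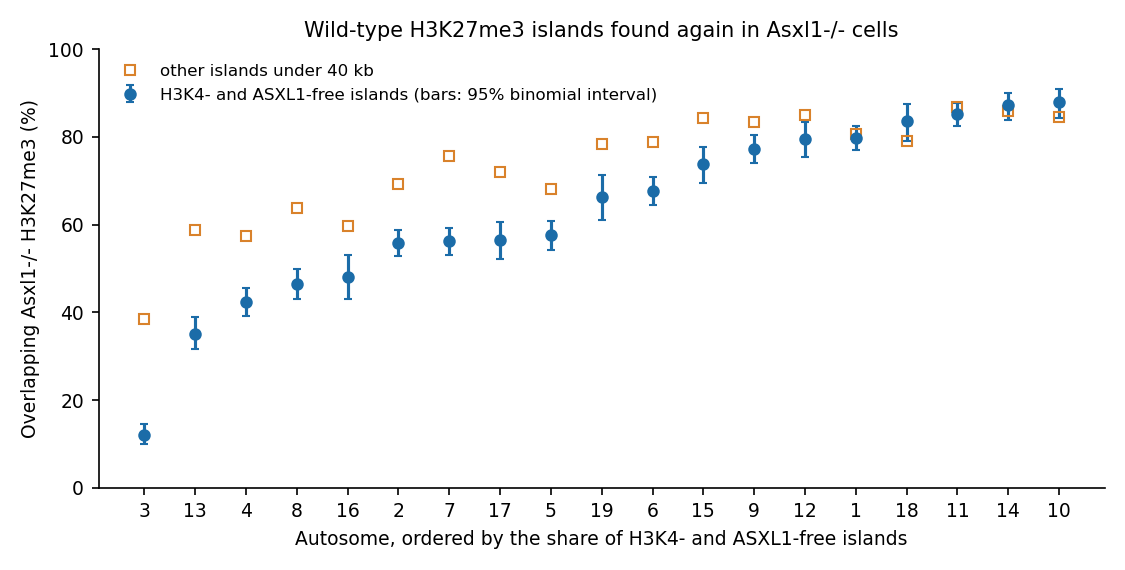
Share of wild-type H3K27me3 islands that overlapped an Asxl1-/- H3K27me3 island (vertical axis, %) on each autosome (horizontal axis, in order of the share), for H3K4-free islands (filled, with 95% exact binomial intervals) and the other islands under 40 kb (open). The share of H3K4-free islands runs from 12.1% on chromosome 3 to 87.9% on chromosome 10.

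H3K4me2 in Asxl1-/- cells overlapped 734 H3K4-free islands, or 5.72% (5.33 to 6.14). The share over all autosomal wild-type H3K27me3 islands under 40 kb was 24.4%, and among the others, most of which carried wild-type H3K4me2, it was 82.9%. Since the choice fixed wild-type H3K4me2 at 0, the direction of this difference is given by the choice. With the genotypes exchanged, 4.51% of the Asxl1-/- islands free of both H3K4 marks overlapped wild-type H3K4me2 (4.17 to 4.87), against 5.82% of wild-type islands chosen by the same 2 lists (5.42 to 6.24). Of all autosomal Asxl1-/- H3K4me2 islands, 21.6% overlapped no wild-type one, and 10.4% of those (736 of 7073) lay on H3K4-free islands. H3K4-free islands cover 5.02% of the gene span, but that is a share of bases. The 10.4% is a share of islands by 1 bp overlap, an unlike measure, and enrichment was not tested. The choice also excluded wild-type H3K4me2, and 93.9% of the 784 Asxl1-/- H3K4me2 islands on H3K4-free islands had no wild-type overlap. The H3K4me2 islands without wild-type overlap were narrow, with a median of 1.8 kb both there and elsewhere. Where present, H3K4me2 covered a median of 15.4% of the H3K4-free island.

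Most H3K4-free islands with Asxl1-/- H3K4me2 also had Asxl1-/- H3K27me3. Of the 734 islands, 564 also overlapped Asxl1-/- H3K27me3 (76.8%, 73.6 to 79.8), and in 490 of them an Asxl1-/- H3K4me2 island itself overlapped an Asxl1-/- H3K27me3 island. The share with H3K27me3 was 59.9% over all H3K4-free islands and 85.1% over those above 16 kb, where H3K4me2 was also more frequent (10.9%). At gene starts it was 90.5% of islands with H3K4me2 (85.7 to 94.1), beside 79.0% of all H3K4-free islands there. Of all H3K4-free islands, 55.5% had H3K27me3 alone in Asxl1-/-, 1.33% had H3K4me2 alone and 38.8% had neither. Overlap by separate libraries does not show that both marks sit on the same chromosome copy or in the same cell. H3K4me3 was rarer, on 134 islands (1.04%, 0.876 to 1.24), where the share over all islands under 40 kb was 15.4%, and 105 of those also had H3K4me2.

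H3K4me2 on H3K4-free islands went with place and CpG content. It was found on 19.9% of those at gene starts (17.5 to 22.4), 5.78% of those in gene bodies and 3.65% of those between genes (3.23 to 4.10). At the promoter windows themselves, Asxl1-/- H3K4me2 was found at 2.50% of windows with 0 to 4 CpG (15 of 601), 9.72% with 5 to 9, 27.9% with 10 to 19 and 68.1% with 20 or more (77 of 113, 58.7 to 76.6). Over all promoter windows the shares in Asxl1-/- were 12.2, 43.8, 86.2 and 96.8%. A rise with CpG was thus not particular to H3K4-free islands. Their windows lay below all windows in each class, but all windows include those with wild-type H3K4me2, which the choice excluded. The choice therefore enters that difference. H3K27me3 overlap also ran higher with CpG, at 66.9, 71.4, 80.0 and 87.6% of the windows in these classes. Without chromosomes 3, 4, 10, 13 and 14 the H3K4me2 shares were 2.90, 9.78, 21.5 and 67.9%. With the genotypes exchanged, windows in Asxl1-/- islands free of both H3K4 marks had wild-type H3K4me2 in 1.06% of 568, 5.65% of 354, 14.4% of 160 and 6.52% of 46 cases (3 of 46, 1.37 to 17.9). Wild-type windows chosen by the same 2 lists again gave 68.1% of 113 in the CpG-rich class. In the class of 10 to 19 CpG the same 2 lists gave 27.5% (21.3 to 34.3) for wild-type windows, beside 14.4% (9.34 to 20.8) with the genotypes exchanged.

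**Figure D5:**
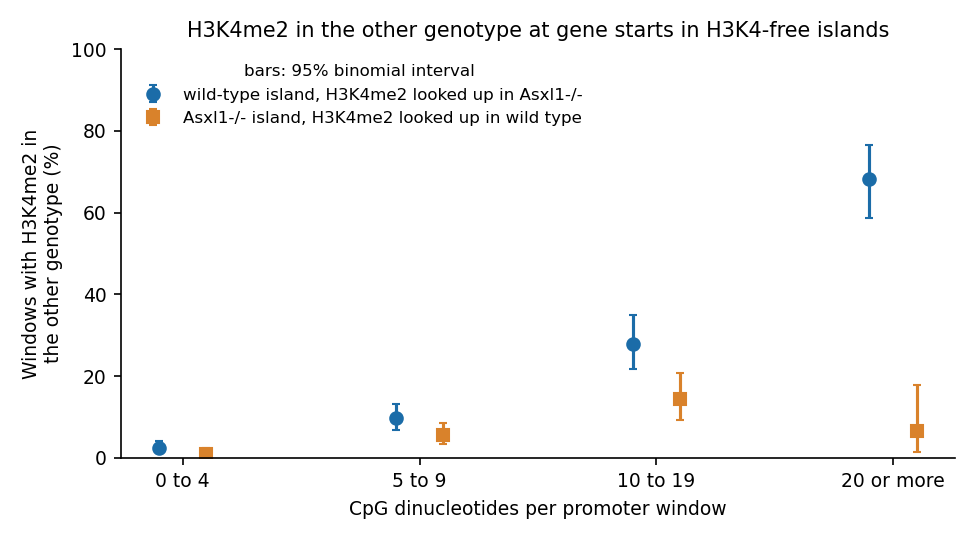
Share of promoter windows with H3K4me2 in the other genotype (vertical axis, %) by CpG content (horizontal axis), for windows in wild-type H3K4-free H3K27me3 islands (circles) and in Asxl1-/- H3K27me3 islands free of both H3K4 marks (squares), with 95% exact binomial intervals. At 20 or more CpG the shares are 68.1% and 6.52%.

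The asymmetry was also present over all CpG-rich starts. Of 7451 windows with 20 or more CpG, 171 had H3K4me2 in Asxl1-/- alone, 77 of them in H3K4-free islands, and 29 in wild type alone. H3K4me2 was at 94.9% of these windows in wild type and 96.8% in Asxl1-/-, H3K4me3 at 93.4 and 92.8%, and H3K27me3 at 20.2 and 16.2%. In windows with 0 to 4 CpG, H3K4me2 was in Asxl1-/- alone at 122 and in wild type alone at 114. Over the autosomes H3K4me2 islands added up to 136.6 Mb for wild type and to 126.5 Mb for Asxl1-/-. These totals include the differences by chromosome given above, and how they bear on CpG-rich starts was not tested. With 1 H3K4me2 library per genotype, a difference between libraries and one between genotypes cannot be told apart.

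CpG-rich starts in H3K4-free islands belonged to 107 genes, of which 76 had Asxl1-/- H3K4me2 at such a start, 95 had H3K27me3 and 68 had both. The genes named in this group were chosen after their values were seen. The Reln island (11.4 kb), at the gene of a secreted guide of migrating neurons, held 2.6 kb of H3K4me2 and was covered to 70.2% by H3K27me3. Chga, which codes for a protein of secretory granules, had 1.6 kb of H3K4me2 in an island of 16 kb, and Fgfr4 had 2.2 kb in 6.4 kb. Among transcription factor genes, Zic1 had 3.6 kb of H3K4me2 in 12.4 kb, Rfx4 4.4 kb in 19.6 kb and Nkx2-4 2.8 kb in 8.4 kb. At Gria2, a glutamate receptor gene on chromosome 3, and Gabra2, a GABA receptor gene, H3K4me2 of 0.6 and 1.0 kb was found with no H3K27me3 on the island. Trh, the thyrotropin-releasing hormone gene, and Kcnj6 had CpG-rich starts, islands of 16 and 6.6 kb covered to 97.5 and 93.9% by H3K27me3, and no H3K4me2.

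A smaller group had H3K4me3 as well. Of the 107 genes, 21 had Asxl1-/- H3K4me3 at a CpG-rich start. At Aldh1a2 the island of 10.8 kb carried 5.2 kb of H3K4me2 and 4.6 kb of H3K4me3, and H3K27me3 covered 29.6% of it. At Igf2, an insulin-like growth factor gene that also hosts miR-483, the island of 14.8 kb was covered to 98.6% by H3K27me3 and carried 4.8 kb of H3K4me2 and 1.4 kb of H3K4me3. Ranked by width, the islands in genes with Asxl1-/- H3K4me3 were led by Abcc2 (37.6 kb, 1.8 kb of H3K4me3). An island of 33.6 kb that reached Actl6b and Tfr2, the transferrin receptor 2 gene, held 3.4 kb of H3K4me3, which lay at 3 Tfr2 promoter windows and not at the CpG-rich Actl6b window. An island of 32.4 kb over Prkcz held 2.2 kb of H3K4me3, which reached 2 Prkcz promoter windows of 13 and 14 CpG and not its window of 31 CpG. Bsx, a hypothalamic homeobox gene, had an island of 27.6 kb with 1.8 kb of H3K4me3 and 2.8 kb of H3K4me2, covered to 98.6% by H3K27me3. The Zfp811 island (22.6 kb) carried 0.4 kb of H3K4me3 and neither H3K27me3 nor H3K4me2.

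Ranked by width, the islands in genes with Asxl1-/- H3K4me2 were Jakmip1 and Kndc1 (1.0 kb of H3K4me2 each), Plch2 (2.6 kb), Pou4f3 (2.8 kb), Calb2, the calretinin gene (0.6 kb in an island of 37.6 kb), Prss55 (1.4 kb), Abcc2 (1.4 kb) and Cacna2d2 (0.2 kb). All 8 overlapped Asxl1-/- H3K27me3 as well, over 86.2 to 98.9% of their width. In each, at least 1 of the Asxl1-/- H3K4me2 islands overlapped no wild-type H3K4me2 island, and that held for 690 of all 734 islands.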

How the data were processed

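The submitters' processing notes name BWA, SICER 1.1 and the build mm10, and 1 island list was deposited per library. The deposited lists hold positions and no count, score, fold or p-value, and no source used here states the caller's settings. All starts and ends lie on a grid of 200 bp. They are printed as deposited, and the lists do not state whether they count from 0 or 1.

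Islands of the 19 autosomes were compared by position, a shared base (1 bp) counting as overlap (Python 3.11.15, pandas 2.3.3, scipy 1.17.1). The overlap counts were checked with bedtools 2.31.1 and on 200 planted islands. Gene positions, promoter windows and microRNAs came from RefSeq tables on GRCm38.p6, whose coordinates equal those of mm10. The gene table has no exons. CpG was counted in windows of 300 bases. With 1 library per group no test was run. Named islands are the widest of each kind, families are described by up to 3 genes with the widest island, and genes named for a clone or prediction are passed over. The list for H3K4me3 was added later, and 1 family pattern was corrected after it matched an unrelated gene. Members, lists and families were chosen with earlier results of these data known. One item is not reported here.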

Additional observations from a re-analysis of the deposited data

How the results depend on the processing

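The number of H3K4-free islands stayed within 1.5 times of 12828 under each of the 4 other rules tried, from 11825 (under 20 kb) to 13019 (any width). The share in genes was 59.4% with all annotated genes and 41.5% for islands under 20000 bp. The share at a gene end was 18.7% with a window of 2000 bp and 14.2% with 0 bp. H3K27me3 overlap in Asxl1-/- was 53.2% when 50% of the island had to be covered, 34.0% with 50% reciprocal overlap, 65.2% without chromosomes 3, 4, 10, 13 and 14, 58.5% with the Asxl1-/- list shortened to the wild-type number and 57.5% under 20000 bp. H3K4me2 overlap was 0.663% with 50% of the island covered, 4.19% for H3K4me2 islands wholly inside, 1.16% with the wider 50% of the list and 5.14% under 20000 bp. Counting only H3K4me2 islands without wild-type overlap, an alternative added after the data were seen, gave 5.38%. Genes overlapped were 5.22% with 50% of the body covered and 9.19% with a gene end covered. Of 38 families with 3 or more overlapped genes, 22 left their interval in the first of these, 9 in the second and 1 without the 5 chromosomes. The cause was not tested, beyond stricter definitions giving fewer overlaps. No paired analysis was possible because each group is 1 library, and none can be left out.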

Other observations

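Other kinds of genes were overlapped by H3K4-free islands to different degrees. Long noncoding RNA genes were overlapped in 15.4% of 12408 cases (14.8 to 16.1) at a median length of 8.39 kb, close to the 14.4% of the longer protein-coding genes. Pseudogenes were overlapped in 6.95% of 8884 cases and transfer RNA genes in 5.12% of 391. Immunoglobulin and T cell receptor V segments, which come in large clusters, were overlapped in 1 of 394 cases (0.254%, 0.00643 to 1.41).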
